A study of Mus musculus with 35 samples.

Results

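Imprinted genes are genes of which mainly the copy from 1 parent is transcribed, and 41 of them, from 18 chromosomal clusters, were followed here across 4 genotype groups of mouse striatum. They were chosen by symbol from genes known for imprinting in the mouse. Of these 41 members, 38 had a row among the 39017 genes of the count table, and 35 had enough counts to be tested, of 17346 genes tested in all. Peg13, Kcnq1ot1 and Nespas had no row and were not analysed here. The counts do not separate the parental copies, so every value below is the sum of both, and loss of imprinting cannot be told from a change in the copy that is already active.

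The study crossed Htt Q111 knock-in mice, which carry an expanded CAG repeat in the Huntington's disease gene, with mice that lose Hdac2, a class I histone deacetylase, in medium-spiny neurons (MSNs), the projection neurons of the striatum. It asked how each mutation alters the striatal transcriptome and whether the knockout reverses changes that come with the expanded repeat. The 35 libraries, 1 per mouse aged 21.71 to 23 weeks, comprised 8 Htt+/+ mice and 7 HttQ111/+ mice without the knockout (Hdac2 WT), and 9 Htt+/+ mice and 11 HttQ111/+ mice with it (Hdac2 KO). KO mice had 2 floxed Hdac2 alleles and the D9-Cre transgene, driven by the Ppp1r1b promoter, which is active in MSNs after birth, so that other striatal cells kept Hdac2. WT mice had no Cre and carried 2 floxed alleles, except 2 Htt+/+ WT mice with 1. No WT mouse carried Cre, so the transgene and the deletion cannot be told apart. HttQ111/+ mice had 110 to 144 CAG repeats on the expanded allele, and all 4 groups came from a mixed C57BL/6/129SeEv background crossed onto C57BL/6J.

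Parental imprints are laid down in the germ line as DNA methylation of an imprinting control region, and in the embryo this region sets which copy of the genes around it is silent. A cluster usually holds protein-coding genes and at least 1 long noncoding RNA, often expressed from opposite parental copies. Many imprinted genes are most active in the developing brain and placenta, and a few, such as Ube3a and Grb10, are imprinted differently in neurons than in other cells. Histone deacetylation is among the marks found at silenced copies.

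Total counts per library were 50970712 to 77867348, with each mate of a read pair counted on its own. Hdac2 was lower in KO by 0.10 on the log2 scale (log2 fold change -0.10 ± 0.02 SE), a value taken over the whole gene interval of which the deletion removes only some exons, and only in MSNs. Hdac1 was higher by 0.52 ± 0.05. None of the markers fixed for 9 cell types was at 0 in every library. The summed level of 8 MSN markers was 6985 to 7995 CPM (counts scaled to a common TMM library size) in Htt+/+ WT, 5050 to 7029 in HttQ111/+ WT, 6771 to 8004 in Htt+/+ KO and 5708 to 7321 in HttQ111/+ KO. In the average effect of KO, the MSN markers Ppp1r1b and Tac1 passed, both higher, as did Clic6 among 6 choroid plexus markers, of which 4 were tested, and none of the markers of 7 other cell types, and in the average effect of HttQ111 6 of the 8 MSN markers and the astrocyte marker Aqp4 (-0.15 ± 0.03) passed, all lower. In whole tissue, fewer cells of a type and less RNA per cell cannot be told apart. RNA of WT mice was extracted on 24, 25 and 27 May and that of KO mice on 26 and 31 May and 3 June, except 1 HttQ111/+ KO library of 25 May and 1 Htt+/+ KO library of 27 May, so that extraction date and Hdac2 genotype can hardly be told apart.

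Promoter sequences are shown for 2 pairs of neighbours on chromosome 7 in which the results below turn on 1 or both genes. Peg3 and Usp29 start from opposite strands of 1 shared region, and only Usp29 passed the test, while Ndn and Magel2 are neighbours that both passed it. Each window runs from 250 bases before to 50 bases after the RefSeq start in GRCm38.p6, read 5′ to 3′ on the strand of the gene, with CG dinucleotides, the sites of imprint methylation, in capitals. The windows are chr7:6730370-6730669 (minus strand) for Peg3, chr7:6730333-6730632 (plus) for Usp29, chr7:62348027-62348326 (plus) for Ndn and chr7:62376729-62377028 (plus) for Magel2.
Peg3: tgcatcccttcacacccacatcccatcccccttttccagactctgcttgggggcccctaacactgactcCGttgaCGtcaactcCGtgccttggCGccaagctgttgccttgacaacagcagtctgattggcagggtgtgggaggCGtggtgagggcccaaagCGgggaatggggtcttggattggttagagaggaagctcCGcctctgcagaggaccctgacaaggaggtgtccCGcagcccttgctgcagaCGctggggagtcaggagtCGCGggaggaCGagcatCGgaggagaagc
Usp29: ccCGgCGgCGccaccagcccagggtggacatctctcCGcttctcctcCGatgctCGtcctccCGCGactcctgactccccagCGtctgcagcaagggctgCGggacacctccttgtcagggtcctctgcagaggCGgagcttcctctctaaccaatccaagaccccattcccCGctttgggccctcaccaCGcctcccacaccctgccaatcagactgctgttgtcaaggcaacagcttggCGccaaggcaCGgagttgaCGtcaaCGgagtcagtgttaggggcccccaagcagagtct
Ndn: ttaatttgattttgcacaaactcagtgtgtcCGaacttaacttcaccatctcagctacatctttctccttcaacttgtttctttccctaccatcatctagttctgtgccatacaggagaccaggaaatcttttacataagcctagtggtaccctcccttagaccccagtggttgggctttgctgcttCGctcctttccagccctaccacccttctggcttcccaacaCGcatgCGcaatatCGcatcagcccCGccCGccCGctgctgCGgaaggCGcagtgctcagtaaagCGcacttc
Magel2: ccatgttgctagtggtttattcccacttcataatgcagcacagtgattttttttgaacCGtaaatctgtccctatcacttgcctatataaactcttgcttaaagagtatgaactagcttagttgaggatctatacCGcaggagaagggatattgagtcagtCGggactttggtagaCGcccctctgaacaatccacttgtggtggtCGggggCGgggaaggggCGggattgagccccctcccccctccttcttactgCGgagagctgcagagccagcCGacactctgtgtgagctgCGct
The Peg3 window holds 13 CG and that of Usp29 17, with 263 bases shared. The Ndn window holds 11 and that of Magel2 10. RefSeq gave 50 windows for 32 of the members, with a median of 13.5 CG, beside 7 over all 32851 windows. The hexamer TGCCGC, the core of the site that the imprint-protecting zinc finger protein ZFP57 recognises in its methylated form, was searched on both strands. It was present in 12 of the 50 member windows (24%) and in 11.61% of all windows, and in none of the 4 printed. The 12 windows belong to 11 genes, and the 2 Mest windows among them overlap almost fully. The hexamer itself holds a CG, and the shares were not corrected for the higher CG count of the member windows. The match is of letters only.

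The levels spanned a wide range. Reads were counted over whole gene intervals, introns included, so a level per kilobase of exon can favour genes with long introns. The Snrpn interval spans 157725 nt with 2159 nt of exon, and that of Ndn 1652 nt, all of it exon. Per kilobase of exon within the counted interval, the most abundant members were Snrpn, which encodes a splicing protein and whose interval also holds Snurf on the same strand, at a mean level of 268.5 CPM per kilobase over the 35 libraries, and Meg3, a maternally expressed long noncoding RNA, at 185. Impact, an inhibitor of the translation-controlling kinase GCN2, followed at 62.2 CPM per kilobase, and necdin (Ndn), a MAGE-family protein of postmitotic neurons, at 59.1. The ranges of Impact and Ndn over libraries overlapped, as did those of Rian, Gnas, Peg3 and Inpp5f, whose means lay between 31.6 and 39.5 CPM per kilobase. The lowest tested members were Magel2 at 0.501, the transporter gene Slc22a18 at 0.372, Asb4 at 0.217 and Airn at 0.186. In CPM, 32 members had a mean of at least 1 and 10 of at least 100. Calcr, the calcitonin receptor gene, reached at most 0.825 CPM and was not tested. H19 (0 to 6 counts per library) and Phlda2 (0 to 4 counts) were not tested either.

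**Figure D1:**
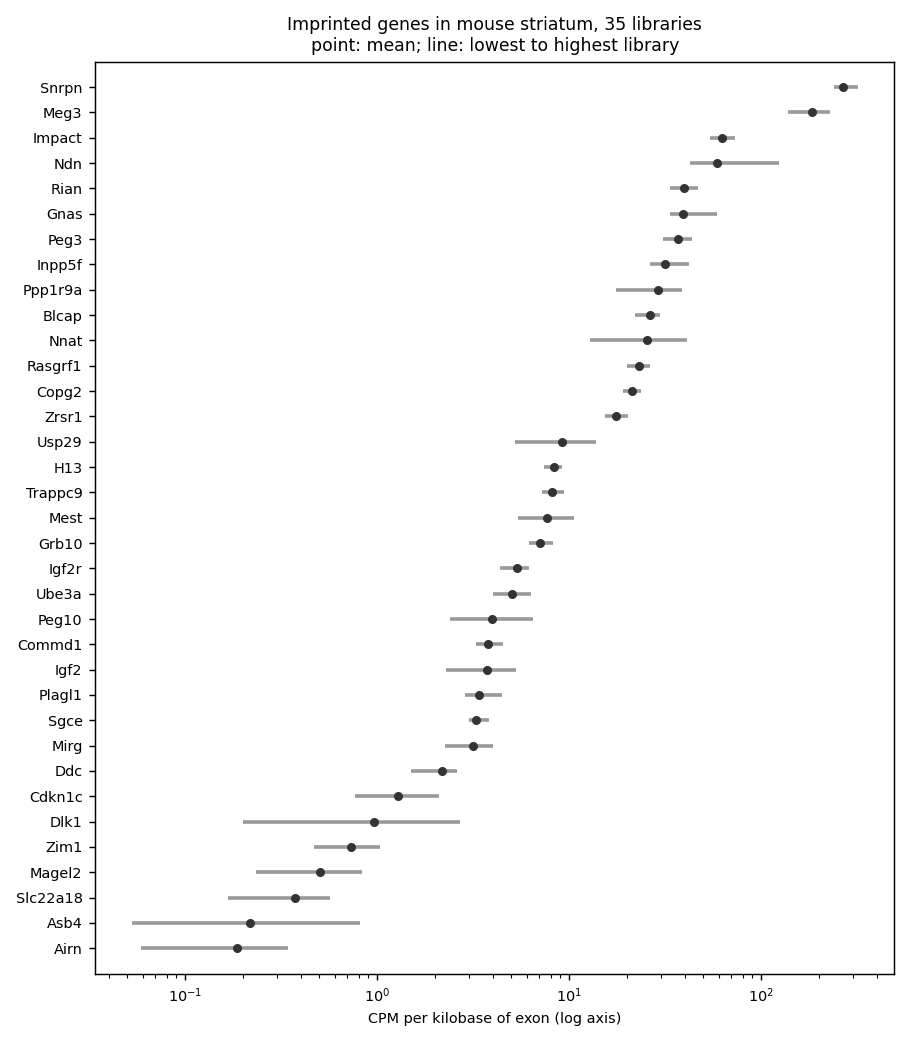
Level of each tested imprinted gene in CPM per kilobase of exon (log axis), 35 libraries of all 4 groups together. The counts cover whole gene intervals, introns included. Points are means and lines run from the lowest to the highest library; Snrpn and Meg3 stand above the rest, and Dlk1 and Asb4 have the widest ranges among the members.

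Hdac2 KO was compared with WT in each Htt background by edgeR's quasi-likelihood test, and each p-value was adjusted for the number of genes tested in the whole table (Benjamini-Hochberg). In Htt+/+ mice 8 of 35 members passed an adjusted p of 0.05, 6 higher and 2 lower in KO, beside 17.8% of all genes (9.06% higher and 8.79% lower). In HttQ111/+ mice 9 of 35 passed, 4 higher and 5 lower, beside 16.5% of all genes (7.68% higher and 8.86% lower). In the average of both backgrounds 13 of 35 passed, 8 higher and 5 lower, beside 25.0% of all genes (12.9% higher and 12.1% lower). The median log2 fold change of the 35 members was 0.108 in Htt+/+, 0.055 in HttQ111/+ and 0.072 in the average, where it was 0.002 over all genes tested. The median size of the log2 fold change in the average was 0.112 over the members and 0.082 over all genes. The average is made from the same libraries as the 2 comparisons beside it. No test was made of whether these shares differ from those of all genes.

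The members that passed in the average effect were Magel2, Ndn, Usp29, Rian, Grb10, Gnas, Igf2r and Blcap, which were higher in KO, and Peg10, Ppp1r9a, Rasgrf1, Ube3a and Impact, which were lower. They lie in 10 of the 18 clusters, and no member outside these 13 passed in either background. Usp29, Rian, Magel2, Ppp1r9a and Impact passed in both backgrounds. Of the 16 tested members known as paternally expressed, 3 rose and 3 fell, and of the 8 known as maternally expressed, 2 rose. With extraction date as a term in place of the surrogate variables (covariates estimated from the counts themselves), only Rian and Ndn kept an adjusted p under 0.05 in the average effect, 2 of 13, and all genes called fell from 4341 to 802. Only 2 KO libraries share an extraction day with WT. The KO library of 25 May lay outside the 5 WT libraries of its day in the fitted direction for 7 of the 13 and in the other direction for 1 (Ube3a, 98.7 CPM, above WT). That of 27 May did so for 7 of the 13 and in the other direction for 2 (Blcap and Igf2r, both below WT). Within the 3 letters of the mouse identifiers (A, V and Z, 8, 16 and 11 libraries), the KO mean was on the same side of the WT mean in every letter for 11 of the 13, and in 2 of 3 for Gnas and Igf2r. The 13 were called on these same libraries, so the counts by day and by letter are no separate support for the calls. The share over all called genes is not given, and the letters do not separate extraction date from Hdac2 genotype. The range of levels in KO lay wholly outside that in WT for 1 of 35 members in Htt+/+ (Rian), beside 4.70% of all genes, and for 0 of 35 in HttQ111/+, beside 1.43%.

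**Figure D2:**
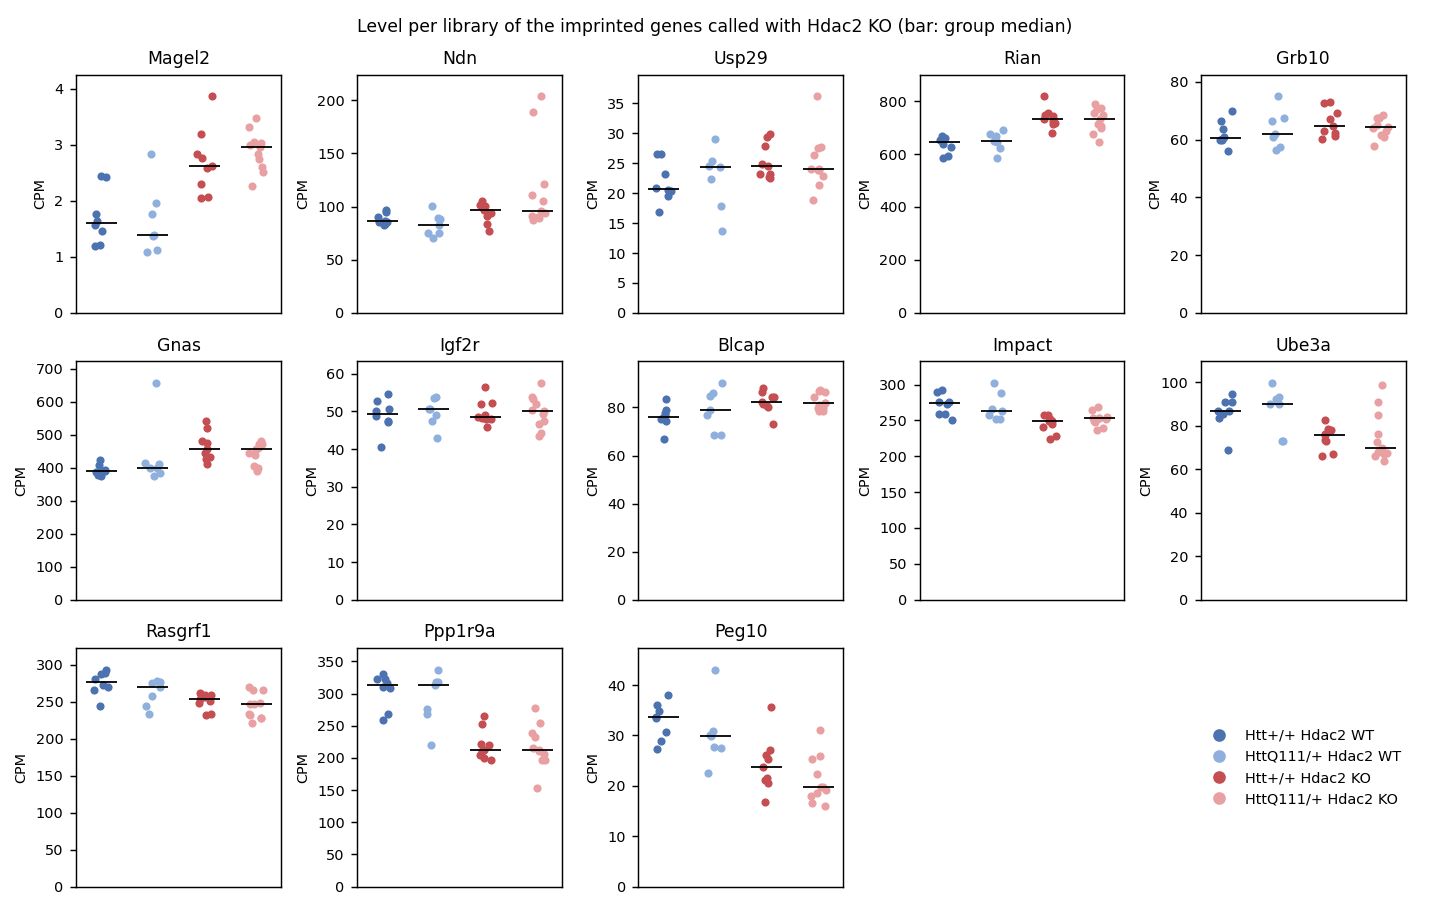
Level in CPM of the 13 imprinted genes that passed the test in the average Hdac2 KO effect, 1 point per library and a bar at the median of each of the 4 groups, with every axis from 0. Rian in the 9 Htt+/+ KO libraries (677.9 to 818) lies above all 8 Htt+/+ WT libraries (585 to 666), Ppp1r9a and Peg10 sit lower in KO, and 2 HttQ111/+ KO libraries stand out in Ndn.

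The Snrpn cluster (chromosome 7), which in humans underlies Prader-Willi and Angelman syndromes, is described first, since it holds Magel2, the called member with the largest log2 fold change. Magel2 (chr7:62376979-62381640), a MAGE-family gene that acts in endosomal protein sorting, had 1.19, 1.60 and 2.43 CPM (lowest, median and highest library) in Htt+/+ WT and 2.05, 2.62 and 3.865 in Htt+/+ KO. In HttQ111/+ it had 1.09, 1.39 and 2.83 CPM in WT and 2.27, 2.96 and 3.47 in KO. The groups overlapped, with 6 of 9 KO libraries above every WT library in Htt+/+ and 7 of 11 in HttQ111/+. The log2 fold change was 0.83 ± 0.22 (SE; adjusted p = 0.00622) in Htt+/+ and 0.67 ± 0.19 (adjusted p = 0.0132) in HttQ111/+. These are low levels, from 56 to 225 counts per library. Within the mouse letters A and Z all KO libraries were above all WT libraries, and in V they overlapped.

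Ndn (chr7:62348277-62349928), 27050 bases from Magel2, had 82.6, 86.0 and 97.2 CPM in Htt+/+ WT and 77.0, 96.45 and 105.5 in Htt+/+ KO. Its levels in HttQ111/+ were 70.7, 82.3 and 100.3 CPM in WT and 87.5, 95.8 and 204 in KO. The KO groups reached higher but overlapped WT in both backgrounds. The fitted log2 fold change was 0.22 ± 0.14 (adjusted p = 0.31) in Htt+/+ and 0.51 ± 0.12 (adjusted p = 0.00376) in HttQ111/+. The 2 highest libraries, HttQ111/+ KO replicates 1 and 2, had 188.9 and 203.9 CPM, 2.09 and 2.26 times the median of the other 33 libraries, of which the highest had 121.3. Both were females of letter A with 118 CAG repeats, extracted on 25 May and 3 June, and their Magel2, Snrpn and Ube3a levels lay inside the ranges of the other libraries. The one of 25 May is also 1 of the 2 KO libraries that share a day with WT, and the other, of 27 May, had 91.2 CPM, inside the range of the 5 WT libraries of that day (75.3 to 97.2). Without the 2 highest libraries Ndn had a log2 fold change of 0.28 (adjusted p = 0.0015) in HttQ111/+ and 0.24 in the average, with an adjusted p of 2.42e-04.

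Ube3a (chr7:59228752-59306727), the ubiquitin ligase expressed from the maternal copy in neurons, had 68.8, 86.75 and 94.5 CPM in Htt+/+ WT and 66.2, 75.9 and 82.5 in Htt+/+ KO. In mice with the HttQ111 allele it had 73.0, 90.0 and 99.7 CPM in WT and 63.6, 69.9 and 98.7 in KO. Most KO libraries lay low, with 7 of 11 below every WT library in HttQ111/+, but 3 KO libraries there lay inside the upper part of the WT range. In the model, the log2 fold change was -0.08 ± 0.05 (adjusted p = 0.281) in Htt+/+ and -0.16 ± 0.04 (adjusted p = 0.00678) in HttQ111/+. Snrpn (519.6 to 690.9 CPM) had log2 fold changes of -0.02 ± 0.03 and -0.00 ± 0.03 in the same comparisons, the second with a 95% interval from -0.06 to 0.05.

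In the Peg3 cluster (chromosome 7), Usp29 (chr7:6961160-6963769), a ubiquitin-specific protease gene, had 16.8, 20.7 and 26.5 CPM in Htt+/+ WT and 22.6, 24.5 and 29.95 in Htt+/+ KO. The HttQ111/+ groups had 13.6, 24.4 and 29.0 CPM in WT and 18.9, 24.0 and 36.2 in KO. The groups overlapped, and in HttQ111/+ the medians were nearly equal before the covariates entered. In the fit, the log2 fold change was 0.31 ± 0.08 (adjusted p = 0.0037) in Htt+/+ and 0.20 ± 0.06 (adjusted p = 0.0305) in HttQ111/+. The call was lost in 4 of 14 alternative fits in Htt+/+ and in 6 of 14 in HttQ111/+. Peg3 itself, a zinc finger protein gene whose promoter is shared with Usp29, had 408 to 581 CPM and log2 fold changes of 0.04 ± 0.05 and 0.07 ± 0.04, which did not pass. The counted interval of Usp29 starts 230527 bases beyond the promoter window printed above, so the value describes the 3′ coding part of that gene. Zim1, a maternally expressed zinc finger gene at 1.84 to 4.04 CPM, had a log2 fold change of 0.13 ± 0.11 in the average effect.

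In the Dlk1-Meg3 cluster (chromosome 12), Rian (chr12:109603940-109661025), a maternally expressed noncoding RNA that hosts small nucleolar RNAs, had 585, 644 and 666 CPM in Htt+/+ WT and 677.9, 734 and 818 in Htt+/+ KO. In HttQ111/+ it had 586, 649.9 and 691 CPM in WT and 647, 732 and 789 in KO. All 9 KO libraries were above all 8 WT libraries in Htt+/+, and 9 of 11 KO libraries were above all 7 in HttQ111/+. The log2 fold change was 0.20 ± 0.05 (adjusted p = 0.00177) in Htt+/+ and 0.17 ± 0.04 (adjusted p = 0.0027) in HttQ111/+. The KO library extracted on 25 May (697.3 CPM) and that extracted on 27 May (818.4) were each above all 5 WT libraries of the same day (at most 666.4 and 691.1). The call held with extraction date as a term (0.24, adjusted p = 0.0267 in the average effect). The interval also holds 3 other annotated RNAs on the same strand, whose reads cannot be told apart from those of Rian.

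Its neighbours did not pass. Meg3, which lies upstream on the same strand and at 2497 to 4155 CPM is the most counted member, had log2 fold changes of 0.01 ± 0.06 and 0.01 ± 0.06 in the 2 backgrounds. Mirg, a microRNA host RNA at 16.4 to 29.2 CPM, had 0.11 ± 0.08 in the average effect. Dlk1, the paternally expressed Notch-related gene of the cluster, varied most of all members between mice of 1 group. Its level ran from 1.14 to 15.2 CPM with a within-group SD of 0.81 on the log2 scale, and its average effect of 0.19 ± 0.30 bounds little.

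In the Sgce-Peg10 cluster (chromosome 6), Peg10 (chr6:4747306-4760514), a gene of retrotransposon origin, had 27.2, 33.6 and 38.1 CPM in Htt+/+ WT and 16.7, 23.8 and 35.7 in Htt+/+ KO. Its levels in HttQ111/+ were 22.6, 29.8 and 43.0 CPM in WT and 16.0, 19.8 and 31.1 in KO. In each background 8 KO libraries lay below every WT library, of 9 and of 11. The fitted log2 fold change was -0.32 ± 0.13 (adjusted p = 0.0862) in Htt+/+ and -0.44 ± 0.11 (adjusted p = 0.00578) in HttQ111/+. Sgce, which encodes epsilon-sarcoglycan and starts on the other strand with its counted interval 242 bases away, had 31.6 to 40.1 CPM and log2 fold changes of 0.06 ± 0.04 and 0.04 ± 0.04. Their ratio is given below.

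Ppp1r9a (chr6:4902917-5159817), farther along the same cluster, encodes neurabin, an actin-binding scaffold of protein phosphatase 1 at dendritic spines. It had 259.6, 313.9 and 329.8 CPM in Htt+/+ WT and 196.7, 212 and 266 in Htt+/+ KO. In mice with the HttQ111 allele it had 220.1, 313 and 337 CPM in WT and 153, 212 and 278 in KO. In Htt+/+ 8 of 9 KO libraries were below every WT library, and in HttQ111/+ 7 of 11 were. In the model, the log2 fold change was -0.33 ± 0.06 (adjusted p = 1.29e-04) in Htt+/+ and -0.34 ± 0.05 (adjusted p = 1.12e-05) in HttQ111/+. The interval holds 2 other annotated RNAs on the same strand, whose reads cannot be told apart from its own. Asb4, a maternally expressed member at 0.207 to 3.20 CPM, had an average effect of 0.08 ± 0.27 and is not resolved at this depth.

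Among the other clusters, Impact on chromosome 18 had 251, 274 and 292 CPM in Htt+/+ WT and 224, 249 and 257 in Htt+/+ KO. The HttQ111/+ groups had 252, 263 and 302 CPM in WT and 237, 253 and 269 in KO. The ranges overlapped, with 6 of 9 and 5 of 11 KO libraries below every WT library. In the fit, the log2 fold change was -0.11 ± 0.04 (adjusted p = 0.0403) in Htt+/+ and -0.11 ± 0.03 (adjusted p = 0.0247) in HttQ111/+. Rasgrf1 (chr9:89909775-90026976), a Ras guanine nucleotide exchange factor of neurons, had 244, 277 and 293 CPM in Htt+/+ WT and 232, 254 and 262 in KO. In HttQ111/+ it had 233, 269.7 and 278 CPM in WT and 221, 247 and 269 in KO, again with overlap. Its log2 fold change was -0.12 ± 0.05 (adjusted p = 0.0873) in Htt+/+ and -0.14 ± 0.04 (adjusted p = 0.0181) in HttQ111/+, and without the 2 libraries high in Ndn the second was -0.09 with an adjusted p of 0.117. Impact in HttQ111/+ likewise missed the threshold without them (-0.07, adjusted p = 0.156). Of 14 alternative fits, 8 lost the HttQ111/+ call of Impact and 6 that of Rasgrf1.

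Gnas (chr2:174284320-174346744), which encodes the stimulatory G protein alpha subunit, had 375, 389.6 and 425 CPM in Htt+/+ WT and 413, 459 and 543 in Htt+/+ KO. Its levels in HttQ111/+ were 377, 401 and 657 CPM in WT and 391, 458 and 482 in KO. In Htt+/+ 8 of 9 KO libraries exceeded every WT library, and in HttQ111/+ none did, since WT replicate 7 held the highest value of all. The log2 fold change was 0.16 ± 0.03 (adjusted p = 0.00104) in Htt+/+ and 0.07 ± 0.03 (adjusted p = 0.105) in HttQ111/+, where Gnas passed once that library was left out. The same library had a summed level of 4 cortical neuron markers of 410.9 CPM, beside 3.38 to 160 in the other 34. Its MSN markers summed to 5265 CPM, inside the range of its own group (5050 to 7029, median 5442). The part of cortical RNA in its Gnas level was not tested. Gnas is read from several promoters with different imprints, which one row per gene does not separate.

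Grb10 (chr11:11930508-12038683), an adaptor that restrains insulin receptor signalling and is expressed from the paternal copy in neurons, had 56.1, 60.5 and 70.1 CPM in Htt+/+ WT and 60.4, 64.9 and 73.2 in Htt+/+ KO. In mice with the HttQ111 allele it had 56.3, 61.8 and 75.04 CPM in WT and 57.6, 64.4 and 68.7 in KO. The ranges overlapped, with 2 of 9 KO libraries above every WT library in Htt+/+ and none in HttQ111/+. The fitted log2 fold change was 0.21 ± 0.04 (adjusted p = 8.08e-04) in Htt+/+ and 0.10 ± 0.04 (adjusted p = 0.105) in HttQ111/+, and it reversed to -0.005 in the average effect with extraction date as a term. The Grb10 call in Htt+/+ was lost in 7 of 14 alternative fits. Ddc, the dopa decarboxylase gene beside Grb10, had 6.72 to 11.7 CPM and an average effect of 0.17 ± 0.07 (adjusted p = 0.101).

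Blcap (chr2:157556362-157571274), a small membrane protein gene, had 66.9, 76.1 and 83.5 CPM in Htt+/+ WT and 73.0, 82.4 and 88.2 in Htt+/+ KO. The HttQ111/+ groups had 68.6, 79.0 and 90.2 CPM in WT and 78.4, 81.7 and 87.3 in KO. In Htt+/+ 4 of 9 KO libraries lay above every WT library, and in HttQ111/+ none of the 11 did. In the model, the log2 fold change was 0.15 ± 0.04 (adjusted p = 0.0137) in Htt+/+ and 0.03 ± 0.04 (adjusted p = 0.64) in HttQ111/+, and its average effect turned to -0.029 with extraction date as a term. Nnat, the neuronatin gene, lies inside the Blcap interval on the opposite strand, and its average effect of 0.07 ± 0.09 did not pass. Igf2r (chr17:12682406-12769664), the receptor that clears insulin-like growth factor 2, had a median of 49.3 CPM in Htt+/+ WT and 48.5 in Htt+/+ KO, and 50.7 and 50.1 in HttQ111/+, over a range of 40.4 to 57.5 in all libraries. Those unadjusted levels did not differ visibly, and Igf2r passed only in the average effect (0.10 ± 0.04, adjusted p = 0.0389), a call that was lost in 8 of 13 alternative fits.

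The other tested members did not pass with Hdac2 KO in either background. The largest of their average effects were those of Airn, the antisense RNA that silences Igf2r on the paternal copy (0.48 ± 0.21, adjusted p = 0.101, at 0.212 to 1.23 CPM), and Slc22a18 (0.36 ± 0.20, adjusted p = 0.198). Plagl1, a growth-restraining zinc finger factor at 18.8 to 29.4 CPM, had 0.14 ± 0.06 (adjusted p = 0.058), and Mest, a hydrolase-fold gene at 21.3 to 41.5 CPM, had 0.14 ± 0.05 (adjusted p = 0.0595). Igf2, Cdkn1c, Inpp5f, Trappc9, Copg2, Commd1, Zrsr1 and H13 had average effects between -0.17 and 0.07. For 28 of the 35 members the 95% interval of the average effect (from the SE, by the normal approximation) lay within 0.5 of 0 on the log2 scale. The exceptions were Magel2, Ndn and Peg10, which passed, and Airn, Asb4, Dlk1 and Slc22a18, for which a larger change cannot be told from none at this depth.

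**Figure D3:**
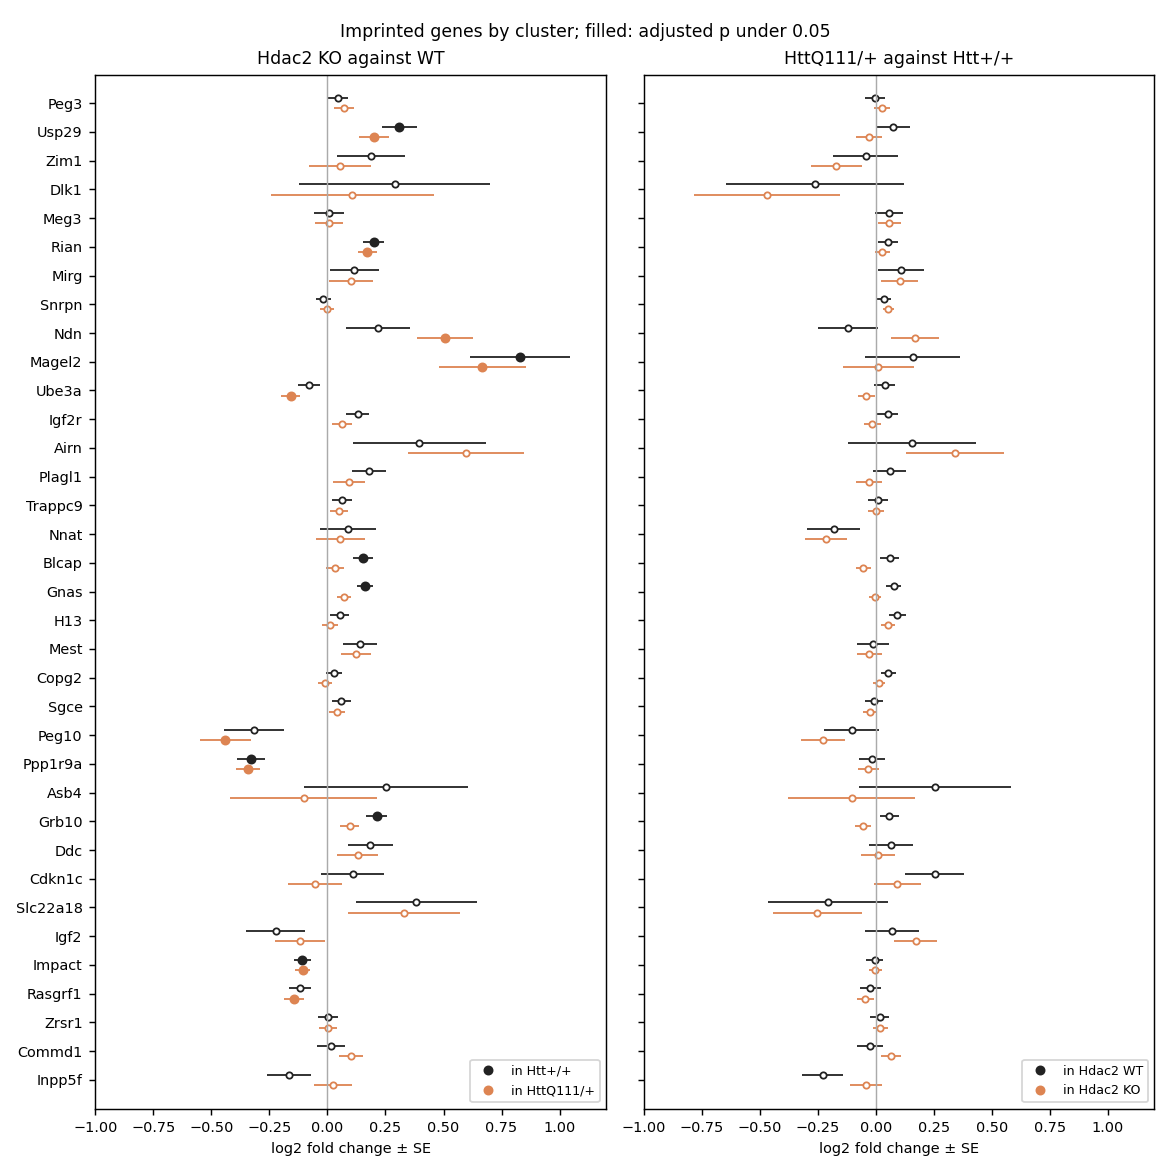
Log2 fold change ± SE of the 35 tested imprinted genes, in cluster order, for Hdac2 KO against WT (left, by Htt background) and HttQ111/+ against Htt+/+ (right, by Hdac2 genotype); filled points have an adjusted p under 0.05 and open points do not. There are 8 and 9 filled points on the left and 0 on the right.

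The HttQ111 allele was compared with Htt+/+ in each Hdac2 genotype by the same edgeR test. No member passed in Hdac2 WT (0 of 35, beside 0.403% of all genes), where 3 had an unadjusted p under 0.05, or in Hdac2 KO (0 of 35, beside 0.00584%), where 3 did. In the average HttQ111 effect 0 of 35 passed, beside 1.27% of all genes (0.432% higher and 0.836% lower), with 6 at an unadjusted p under 0.05, and in the interaction of both genotypes 0 of 35, beside 0.00577%, with 3. DESeq2 also called 0 members in each of the 4. The median log2 fold change of the members was 0.037 in Hdac2 WT and -0.005 in Hdac2 KO. In the average HttQ111 effect, 31 of 35 members had a 95% interval within 0.5 of 0 on the log2 scale, all but Airn, Asb4, Dlk1 and Slc22a18.

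The lowest adjusted p in the average HttQ111 effect was that of H13, which encodes signal peptide peptidase (0.07 ± 0.02, adjusted p = 0.179), followed by Nnat (-0.21 ± 0.07, adjusted p = 0.205) and Inpp5f, a phosphoinositide phosphatase gene (-0.14 ± 0.06, adjusted p = 0.276). Nnat had 16.2, 31.0 and 47.6 CPM in Htt+/+ WT and 14.99, 24.9 and 42.2 in HttQ111/+ WT, ranges that overlap almost fully. Cdkn1c, a maternally expressed inhibitor of cyclin-dependent kinases, had 1.56, 2.12 and 2.48 CPM in Htt+/+ WT and 2.31, 2.92 and 3.97 in HttQ111/+ WT. Its average effect was 0.18 ± 0.08 (adjusted p = 0.376), and it was the member that passed in 5 alternative fits of this effect.

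Neighbours that share a control region were then compared across the 35 libraries, each gene as its log2 level minus its group mean, by Pearson's r and Spearman's rho with permutation of libraries within groups (100000 draws). Of 13 pairs tested, 4 had an adjusted p under 0.05. The pairs share libraries and depth, and 2 of the 4, Meg3 with Rian and Snrpn with Ube3a, still passed with the means of the mouse letters removed as well. Meg3 and Rian rose and fell together (r = 0.75, rho = 0.70, adjusted p = 6.5e-05 and 1.95e-04; r = 0.69 without the 2 libraries farthest from the median), and within the letters A, V and Z r was 0.77, 0.65 and 0.90. Rian and Mirg had r = 0.62 and rho = 0.60 (adjusted p = 7.8e-04 and 0.00113; r = 0.55 without the 2 farthest; 0.60, 0.49 and 0.79 within letters). Zrsr1 lies inside the Commd1 interval on the opposite strand, with a mean of 4468 counts beside 1237 for Commd1. The counting therefore separated the strands. Nnat and Blcap also overlap on opposite strands. They had r = 0.64 and rho = 0.54 (adjusted p = 9.75e-04 and 0.00627; 0.54 without the 2 farthest; 0.65, 0.27 and 0.61 within letters).

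Snrpn and Ube3a moved in opposite directions between mice of 1 group, with r = -0.72 and rho = -0.74 (adjusted permutation p = 6.5e-05 and 1.3e-04, from raw p-values of 1e-05, the smallest that 100000 draws can give). Without the 2 farthest libraries r was -0.63, and within the letters A, V and Z it was -0.42, -0.79 and -0.68. In neurons the long transcript that starts at Snrpn runs antisense through Ube3a on the paternal copy. Such a correlation is not rare in this table: of the 17345 other genes, 208 (1.199%) had an r with Snrpn at least as far from 0, and 499 (2.88%) an r with Ube3a. For Meg3 and Rian, 45 other genes (0.259%) were as close to Meg3, and only 1, Meg3 itself, was as close to Rian. The other 9 pairs had r from -0.14 to 0.27, among them Ndn and Magel2 (0.04), Sgce and Peg10 (0.20) and Peg3 and Usp29 (0.01).

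**Figure D4:**
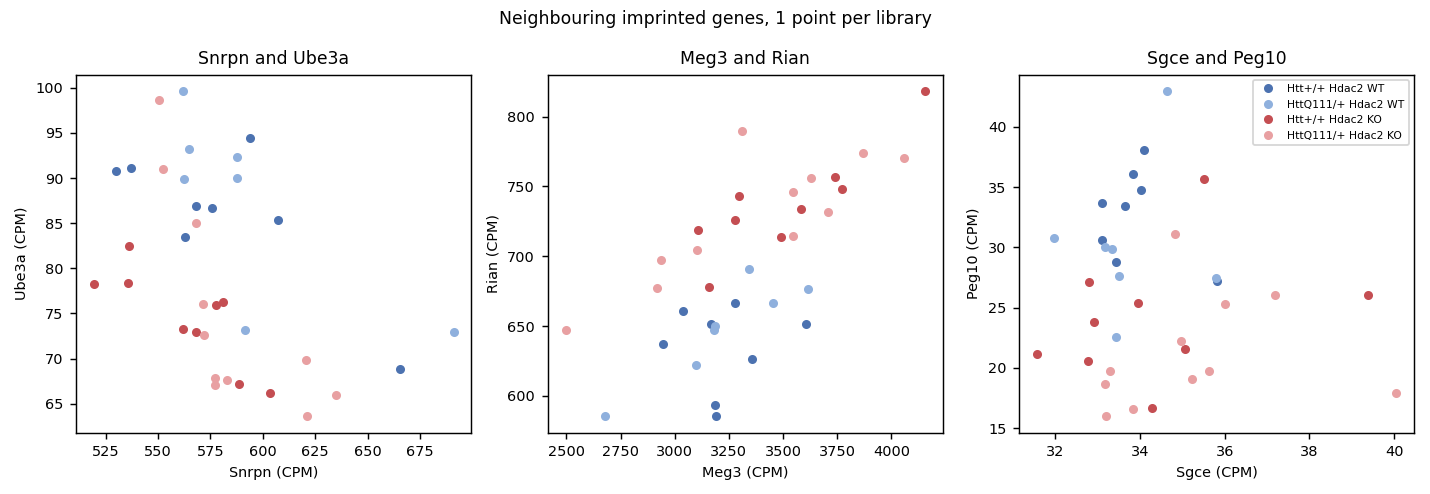
Levels in CPM of 3 pairs of neighbouring imprinted genes, 1 point per library, coloured by genotype group; axes do not start at 0. Snrpn and Ube3a fall along a descending band (r = -0.72 with group means removed), Meg3 and Rian along an ascending one (r = 0.75), and in the plot of Sgce and Peg10 (r = 0.20) Peg10 runs from 22.6 to 43.0 in WT and from 16.0 to 35.7 in KO, with overlap.

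The log2 ratio of the neighbours was compared between KO and WT by an exact permutation test (two-sided, 13 pairs in 2 backgrounds, 26 tests), a comparison added after the data were seen. Unlike the edgeR fit, the ratios used levels without the surrogate variables. Of the 26, 4 had an adjusted p under 0.05. The Sgce to Peg10 ratio was higher in KO by 0.47 in Htt+/+ (mean 0.53 ± 0.29 SD, n = 9, against 0.05 ± 0.18, n = 8; exact adjusted p = 0.0246). In HttQ111/+ it was higher by 0.58 (0.76 ± 0.29, n = 11, against 0.18 ± 0.28, n = 7; exact adjusted p = 0.0229). The ranges overlapped in both backgrounds. This ratio uses the same Sgce and Peg10 levels as above and is no separate result. In the edgeR fit Peg10 itself did not pass in Htt+/+ (adjusted p = 0.0862). The Ndn to Magel2 ratio in Htt+/+ was lower in KO (5.15 ± 0.33 against 5.74 ± 0.37; exact adjusted p = 0.0369), as was that of Zrsr1, a splicing-factor gene, to Commd1, the gene in whose intron it lies on the opposite strand (1.79 ± 0.12 against 1.98 ± 0.13; exact adjusted p = 0.0369). In the edgeR fit Zrsr1 and Commd1 had log2 fold changes of 0.00 ± 0.04 and 0.01 ± 0.06 in Htt+/+, so their ratio change was seen in unadjusted levels only. No ratio within the Peg3 or Dlk1-Meg3 cluster passed.

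The variation of the members between mice of 1 group was also set beside the summed levels of markers of 9 cell types. The 6 members that varied most at a mean of at least 1 CPM were used, and Gnas, which did not meet that rule. Of 63 relations in all, 7 had an adjusted p under 0.05 by Pearson's r. With the microglia markers, Ndn (rho = -0.50, adjusted permutation p = 0.0297) and Gnas (0.46, 0.0372) passed by Spearman's rho alone. Their adjusted permutation p by Pearson's r was 0.154 and 0.136. Igf2, which the adult brain makes mainly in meninges, choroid plexus and vessels, followed the meningeal fibroblast markers (r = 0.87, rho = 0.85, both with an adjusted permutation p of 6.3e-04; 0.84 without the 2 farthest libraries; 0.68, 0.76 and 0.92 within the letters A, V and Z). It also followed the endothelial (r = 0.68, rho = 0.68, adjusted permutation p = 0.00126), astrocyte (0.59, 0.60, 0.00425) and microglia markers (0.52, 0.55, 0.0436), although within letter A r was between -0.10 and -0.06 for these 3. The meningeal markers summed to 11.7 to 20.9 CPM in Htt+/+ WT and 14.1 to 23.2 in HttQ111/+ KO, and the part of such tissue in the Igf2 level was not tested beyond this relation. Peg10 fell with rising endothelial markers (r = -0.61, rho = -0.59, adjusted permutation p = 0.00425; -0.54 without the 2 farthest; -0.60, -0.46 and -0.68 within letters), and Nnat did so too (r = -0.51, rho = -0.56, adjusted permutation p = 0.00714; -0.52; -0.48, -0.25 and -0.30). The endothelial sum was 160 to 214 CPM in the WT groups and 160 to 262 in the KO groups, so that its part in the lower Peg10 of KO was not tested. Gnas followed the cortical markers (r = 0.70, rho = 0.50, adjusted permutation p = 0.00466), with r = 0.48 without the 2 farthest libraries and 0.52, 0.54 and 0.89 within letters. The library highest in Gnas is also the one with the cortical sum of 410.9 CPM given above.

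Of 35 further imprinted genes listed from the same clusters and elsewhere, 27 were tested, and 10 passed in the average Hdac2 KO effect, 6 higher and 4 lower, beside 25.0% of all genes (12.9% higher and 12.1% lower). The largest effects were those of Sfmbt2, a Polycomb-group gene (1.102 ± 0.106, adjusted p = 2.69e-09), Begain, which lies near Dlk1 and encodes a synaptic protein (0.33 ± 0.04, adjusted p = 9.71e-08), Cobl, an actin nucleator gene beside Grb10 (-0.31 ± 0.05, adjusted p = 4.03e-06), and Osbpl5, an oxysterol-binding protein gene (0.31 ± 0.05, adjusted p = 1.25e-05). By the same edgeR test 0 of these genes passed in the average HttQ111 effect, beside 1.27% of all genes, and 7 had an unadjusted p under 0.05. Of 12 factors that maintain imprints, 4 passed in the average Hdac2 KO effect, beside the same 25.0% of all genes. Dnmt3a, a DNA methyltransferase gene, was lower (-0.18 ± 0.03, adjusted p = 1.99e-04), as were Zfp445, an imprint-protecting zinc finger gene (-0.11 ± 0.03, adjusted p = 0.00372), and Ctcf, the insulator protein gene (-0.09 ± 0.02, adjusted p = 0.00397). Ehmt2, a histone H3 lysine methyltransferase gene, was higher (0.13 ± 0.03, adjusted p = 3.51e-04), while Zfp57 (0.08 ± 0.14), Trim28 (-0.01 ± 0.02) and Dnmt1 (0.03 ± 0.03) did not pass.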

How the data were processed

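RNA-seq of striatum was compared between the 4 genotype groups given by the sample labels. The authors made stranded mRNA libraries, used GSNAP for alignment to GRCm38, and summed uniquely placed reads across each full Ensembl gene interval with bedtools; the deposited values are raw counts per gene, not normalized. Whether strand entered the counting is not given in the sources used here. The counts of Zrsr1 (mean 4468), inside the Commd1 interval on the opposite strand, and of Commd1 (1237) show that it did. From these counts, 92 ERCC rows, 2 mitochondrial rRNA genes and 6152 genes spanning at most 250 nt were left out. A gene entered a test if all libraries of any 1 compared group had 6 counts or more. Counts were scaled by TMM and fitted to all 4 groups with 9 surrogate variables (sva 3.50.0) by edgeR's quasi-likelihood test (edgeR 4.0.16, R 4.3.3), and Benjamini-Hochberg adjustment covered every gene in the test. The procedure was also run on simulated counts with 200 genes changed in 1 group, of which it called 195, with 11 wrong calls. Those counts held no date structure, so the run does not bear on extraction date. CPM used TMM library sizes, and log2 levels of single libraries had 0.5 CPM added. Exon lengths came from GENCODE M21, restricted to the counted interval.

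The members, the further gene lists and the markers were chosen with earlier results of these data known. Full values were given for members that passed in at least 1 of 7 comparisons, and for the further lists the counts and at most 4 genes each by size of effect. Of the alternative settings, 12 were planned and 2 that leave out libraries were added after seeing the data. Each library is 1 mouse; precision is limited by 7 to 11 mice per group. No libraries were identical (at least 21882 rows differed between any 2).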

Additional observations from a re-analysis of the deposited data

Results flagged for a closer look

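In 96 tests of groups of 7 to 9 libraries for a value far from the rest, 8 were met, where chance gives about 1 in 20. In the HttQ111/+ Hdac2 WT group, replicate 7 had Snrpn at 691 CPM (next library 592) and Gnas at 657 CPM (next 413). That library also had low Nnat (14.99 CPM) and Dlk1 (1.278), and the cortical marker sum of 410.9 CPM given above. In the same group, replicate 1 had Peg10 at 43 CPM (next 30.8). Among Htt+/+ Hdac2 WT libraries, Ube3a was lowest in replicate 9 at 68.8 CPM (next 83.4), and Sgce highest in replicate 5 at 35.8 CPM (next 34.1). Among Htt+/+ Hdac2 KO libraries, Sgce was highest in replicate 1 at 39.4 CPM (next 35.5), Ddc lowest in replicate 8 at 7.49 CPM (next 9.57), and Cdkn1c highest in replicate 6 at 3.15 CPM (next 2.59). The group of 11 was not tested in this way, so the pair of HttQ111/+ KO libraries high in Ndn was chosen after its values were seen. By edgeR's interaction test, 0 imprinted genes passed for a difference of the Hdac2 KO effect between the Htt backgrounds, and 3 had an unadjusted p under 0.05.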

How the results depend on the processing

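With extraction date in place of surrogate variables, the imprinted genes called with Hdac2 KO fell from 8 to 1 in Htt+/+, from 9 to 0 in HttQ111/+ and from 13 to 2 in the average, Blcap reversed to -0.029 and Grb10 to -0.005, and 1 gene, Cdkn1c, was called in the HttQ111 comparison of Hdac2 WT and in the average HttQ111 effect; date nearly follows the Hdac2 genotype, and the cause was not tested. Calls over all genes then fell from 3056 to 822, 2841 to 331 and 4341 to 802 in the same order. They rose from 69 to 419 in the HttQ111 comparison of Hdac2 WT and from 220 to 403 in the average HttQ111 effect. Compared groups only gave 15 members in Htt+/+, beside 5094 of all 17126 genes, and males alone 4, beside 1970 of 17383. Fits with no covariates, sex, the ID letter or the replicate block each called 1 member (Cdkn1c) in the average HttQ111 effect, beside 240 to 629 of all genes. The ID letter also called 1 in Hdac2 WT, beside 837 of all genes. The replicate block gave 12 in Htt+/+, 4 in HttQ111/+ and 13 in the average Hdac2 KO effect, beside 4351, 1854 and 5272 of all genes. The replicate numbers do not pair the mice (median r of deviations 0.0386 over 45 same-numbered pairs, 15 above 0.1). Of 30 named fold changes, 25 missed the threshold and 3 held (Rian in Htt+/+, and Rian and Ndn in the average) with extraction date. In the average effect with that term, Magel2 had 0.586, Ppp1r9a -0.322, Peg10 -0.383, Rasgrf1 -0.184, Usp29 0.183 and Impact -0.116, while Gnas (0.054), Igf2r (0.040) and Ube3a (-0.063) were nearer 0. All 30 held with DESeq2's test and size factors. Without the 2 libraries high in Ndn the counts with Hdac2 KO were 10, 7 and 17, beside 3361, 2689 and 4557 of all genes. Without the library high in Gnas they were 9, 10 and 14, beside 3555, 3041 and 4884. Removing ID letter means left 2 of 4 correlated pairs. Members under 1 CPM are limited by depth.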

Other observations

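Some imprinted genes differed between the sexes or between the letters of the mouse identifiers, as values without a test. Igf2 averaged 24.9 CPM in the 13 females and 19.4 in the 22 males, 0.37 higher on the log2 scale with group means removed. Nnat averaged 27.5 CPM in females and 30.9 in males. Dlk1 had a median of 5.71 CPM in letter A, 5.63 in V and 3.40 in Z. Peg10 had medians of 26.9, 28.5 and 21.2 CPM and Ppp1r9a of 268, 287 and 206 CPM in the same order. Letter Z holds 8 KO and 3 WT libraries, so these medians mix letter with Hdac2 genotype. Within Z alone, Peg10 ranged from 15.99 to 25.4 CPM in KO and from 27.45 to 30.8 in WT.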
